A study of Mus musculus with 11 samples.

Results

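Class I molecules of the major histocompatibility complex (MHC) display peptides at the surface of nearly every nucleated cell. A polymorphic heavy chain pairs with the light chain beta-2 microglobulin, and the transporter TAP carries peptides from the cytosol to the empty complex in the endoplasmic reticulum. The heavy chain genes and B2m are switched on through a shared promoter module that the activator NLRC5 uses. Double negative (DN) thymocytes, which carry neither CD4 nor CD8, are the earliest T cell precursors of the thymus and pass from DN2 to DN3 as they commit to the T lineage.

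The genes described here were 10 genes of this pathway, out of 35896 genes in the tables. They were taken by name as class I heavy chain genes with their light chain, transporter and activator, and this group was chosen by the lower measured values of H2-Q6 and H2-Q7 in DN3 thymocytes of Arpp21 knockout mice. There were 7 heavy chain genes (H2-K1, H2-D1, H2-Q4, H2-Q6, H2-Q7, H2-T22 and H2-T23), the light chain gene B2m, the transporter subunit gene Tap1 and the activator gene Nlrc5. All 10 were among the 13749 genes that passed the filter on low counts. Because the DN3 values chose the list, the DN3 difference between genotypes is given as a description without a test, and so are the stage differences of H2-Q6, H2-Q7 and H2-D1, whose lower DN3 KO values were already known from earlier results on these libraries.

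The RNA came from thymocytes of C57BL/6J mice (strain as labelled), sorted at DN2 or at DN3. The mice were wild type (WT) or carried the genotype labelled Arpp21 KO. In this germline line, exon 5 of the RNA-binding protein gene Arpp21 had been cut out with Cas9 in zygotes. The paper's methods give C57BL/6N parents for these zygotes, and a difference in substrain between KO and WT was not tested. There were 3 DN2 WT, 2 DN2 KO, 3 DN3 WT and 3 DN3 KO libraries, with no treatment named in the labels, and ages of single animals were not given in the sources used here. Since the labels do not state that each library came from its own animal, p-values measure only the spread between these libraries, which may be technical. The long-isoform frame shift leaves the gene transcribed, and the paper reports higher levels of a short Arpp21 protein in thymocytes of this line.

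Arpp21 itself, summed over its transcripts and given as CPM (counts scaled to library size with edgeR's TMM factors), was at 183, 125 and 136 CPM in the DN2 WT libraries and at 86.9 and 28.5 CPM in the DN2 KO libraries. In DN3 it was at 386, 336 and 312 CPM in WT and at 335, 221 and 142 CPM in KO. The DN2 groups did not overlap and the DN3 groups did, so this sum, which also counts transcripts without exon 5, separates the genotypes in DN2 only. Total estimated counts ranged from 14531762 to 63109504 per library. DN2 KO replicate 2 and DN3 KO replicate 3 stood apart from the rest. Their correlations of log2 CPM with the other libraries of their stage were 0.815 to 0.846 and 0.919 to 0.941, against at least 0.963 among the others. In DN2 KO replicate 2 the median gene with transcripts under 1000 bases was 1.38 higher on the log2 scale than in the other DN2 libraries, and the median gene over 3000 bases was lower, at -1.29. For DN3 KO replicate 3 these medians were 0.64 and -0.7. Results that rest on these libraries are given with and without them. Without them, DN2 KO is a single library, and each value for DN2 KO in that fit rests on this library and assumes that it varies like those of the other groups. Stage markers followed the labels in part. Ptcra, part of the pre-T cell receptor, was at 365 CPM or more in every DN3 library and at 11.7 CPM or less in every DN2 library. Cd44 was at 55.6 CPM or more in DN2 and at 13.1 CPM or less in DN3. Kit, another DN2 marker, was at 446 CPM or more in 4 DN2 libraries but at 66.6 CPM in DN2 KO replicate 2, within the DN3 WT range of 60.1 to 97.3 CPM. Tcf7, also listed for DN2, was higher in DN3 WT, at 760 to 817 CPM against 340 to 450 CPM in DN2 WT. The 8 DN2 markers summed to 2435 to 3181 CPM in DN2 WT and to 2756 to 3318 CPM in DN3 WT. In DN2 KO replicate 2 they summed to 418 CPM. The DN3 markers summed to 1481 to 2223 CPM in DN2 WT and to 4072 to 4612 CPM in DN3 WT. Of the B cell genes listed as markers, 3 of 5 were under 1 CPM in every library, as were 4 of 6 dendritic cell genes, 3 of 6 NK cell genes and 4 of 5 epithelial genes. Other genes of these lists were not low, with the B cell gene Cd79b at 38.4 to 71.6 CPM over all libraries, the NK cell gene Gzma at 176 to 486 CPM in DN3 and up to 123 CPM in DN2, and the epithelial gene Epcam at 2.53 to 107 CPM. In bulk RNA, fewer cells of a type and less RNA per cell cannot be told apart. The summed myeloid markers reached 114 to 159 CPM in DN2 WT, 134 and 357 CPM in DN2 KO, 29.9 to 36.9 CPM in DN3 WT and 34.8 to 47.6 CPM in DN3 KO. The part of any of these markers in the class I values was not tested.

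On GRCm38, 8 of the 10 genes lie within 2.05 Mb of chromosome 17. H2-K1 (chr17:33996017-34000347, minus strand) and Tap1 (chr17:34187553-34197225) lie at one end, H2-D1 (chr17:35262730-35267499), H2-Q4 (chr17:35379617-35385290), H2-Q6 (chr17:35424850-35430055) and H2-Q7 (chr17:35439155-35443773) in the middle, and H2-T23 (chr17:36029773-36032855, minus strand) and H2-T22 (chr17:36037128-36042747, minus strand) at the other. B2m lies on chromosome 2 (chr2:122147686-122153083) and Nlrc5 on chromosome 8 (chr8:94434356-94527272).

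The promoters are shown because the heavy chain genes share a compact set of control elements. Class I promoters are known for enhancer A, a kappa B site that NF-kappa B binds, for an interferon-stimulated response element (ISRE) that interferon regulatory factors bind, and for the X2 and Y boxes that, with their binding proteins, recruit NLRC5. Of the 10 genes, 9 had a promoter window in RefSeq (GRCm38.p6), and Nlrc5 had none there. The bases before the RefSeq start are printed for the heavy chain genes at the extremes of the DN3 values, with H2-K1 as a classical gene, H2-Q6 and H2-Q7 as the Qa genes, and H2-T22. They run 5′ to 3′ on the gene's own strand, and capitals mark a kappa B site spelled GGGGA directly followed by TTCCC, an ISRE spelled GAAA, 2 bases of any kind and GAAA, an X2 box spelled TGACGC or a Y box spelled ATTGG, searched on both strands (on the other strand the Y box reads CCAAT, and the ISRE reads TTTC, 2 bases and TTTC). No match overlapped another. The H2-T22 stretch holds 245 of the 250 bases of its window, as bases inside the annotated gene were left out. Distances of matches are counted from the RefSeq start and not from the end of the printed stretch.
H2-K1, minus strand of chr17:34000348-34000597: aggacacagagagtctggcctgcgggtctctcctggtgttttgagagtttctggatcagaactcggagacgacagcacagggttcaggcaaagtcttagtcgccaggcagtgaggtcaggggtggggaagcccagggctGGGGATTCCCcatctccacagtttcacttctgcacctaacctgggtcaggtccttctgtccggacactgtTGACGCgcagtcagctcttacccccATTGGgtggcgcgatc
H2-Q6, chr17:35424600-35424849: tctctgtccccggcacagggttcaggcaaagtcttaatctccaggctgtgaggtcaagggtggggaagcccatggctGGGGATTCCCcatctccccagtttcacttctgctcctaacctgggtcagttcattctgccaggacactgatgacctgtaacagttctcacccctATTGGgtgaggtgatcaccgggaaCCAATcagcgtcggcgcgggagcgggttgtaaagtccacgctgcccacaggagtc
H2-Q7, chr17:35438905-35439154: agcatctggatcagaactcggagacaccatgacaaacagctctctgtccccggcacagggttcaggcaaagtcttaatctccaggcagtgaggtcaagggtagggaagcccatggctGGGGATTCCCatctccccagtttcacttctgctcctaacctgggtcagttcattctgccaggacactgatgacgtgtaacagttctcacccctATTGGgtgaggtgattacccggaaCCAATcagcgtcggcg
H2-T22, minus strand of chr17:36042748-36042992: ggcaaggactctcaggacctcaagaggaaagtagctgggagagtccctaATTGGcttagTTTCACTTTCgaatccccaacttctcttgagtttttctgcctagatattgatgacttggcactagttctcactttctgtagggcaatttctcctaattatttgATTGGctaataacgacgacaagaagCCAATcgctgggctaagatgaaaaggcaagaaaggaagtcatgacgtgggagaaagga

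The kappa B letters stood in 4 of the 9 windows, those of H2-K1, H2-D1, H2-Q6 and H2-Q7, at 111, 171, 173 and 133 bases before the RefSeq start. Over all 32851 windows of 250 bases, 0.0852% hold these letters. The ISRE letters stood in the windows of H2-T22, H2-T23 and B2m, 191, 124 and 139 bases before the start, against 2.98% of all windows. An exact X2 box stood in H2-K1 and H2-D1 alone of the 9, against 6.12% of all windows, and Y box letters stood in all 9, against 33.8%. A match is a description of the letters and not of a bound site, and a missing match says only that these letters are not in the window. The windows of H2-Q6 and H2-Q7 shared an unbroken stretch of 66 identical bases, and those of H2-T22 and H2-T23 no stretch over 9.

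The likeness of these genes extends to their transcripts, which bears on every value below. Reads that fit several transcripts were shared out among them by kallisto when the authors made the tables. Of the 31-base words in the transcripts of H2-Q6, 50.2% occur in no other gene, 24.6% also occur in H2-Q4, 18.4% in H2-Q7 and 12.9% in H2-Q5. For H2-Q7 the share found in no other gene was 60.9%, with 22.4% also in H2-Q10. H2-T22 shared 47.2% of its words with H2-T10. The classical genes were more distinct, with 77.2% for H2-K1 and 73.3% for H2-D1, and B2m, Tap1 and Nlrc5 were at 100%, 99.2% and 100%. Values of single H2-Q genes and of H2-T22 are therefore uncertain where reads are split between copies. Sums over the near-identical H2-Q genes are given beside the H2-Q values. No sum of H2-T22 and H2-T10 was made. Tap1 overlaps the immunoproteasome gene Psmb9 on the opposite strand, and the library kit does not mark strand.

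Levels between genes are compared in TPM, which divides counts by transcript length. In DN3 WT, B2m stood highest at 2730 ± 65.9 TPM (SD, n = 3), followed by H2-D1 at 794 ± 65.1, H2-K1 at 573 ± 12.0, H2-Q7 at 146 ± 22.8, Tap1 at 112 ± 3.4, H2-T23 at 110 ± 5.6, H2-T22 at 57.7 ± 1.8, H2-Q6 at 23.6 ± 7.2, H2-Q4 at 6.87 ± 0.808 and Nlrc5 at 5.3 ± 0.871 TPM. Tap1 and H2-T23 were closer to each other than their SDs, while H2-Q4 and Nlrc5 lay further apart than either SD. The classical genes H2-K1 and H2-D1 made up 78.7% to 80.6% of the summed CPM of 34 class I heavy chain genes and pseudogenes in DN3 WT and 78.8% to 79.9% in DN2 WT. Of these 34, 14 stayed under 1 CPM in every library.

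In DN3 thymocytes, 7 of the 10 genes were lower in every KO library than in every WT library, namely H2-K1, H2-D1, H2-Q4, H2-Q6, H2-Q7, B2m and Tap1. Across all genes tested, 5.56% separated in that direction. No gene of the list separated upward. Among all genes tested, 1 of 13749 (0.00727%) was called lower at an adjusted p under 0.05. That gene was H2-Q6, whose values chose the list, so the call is no independent test of it. These counts restate the choice of the list and are read no further.

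H2-Q6, which encodes a Qa-2 antigen, differed most among the 10. It was at 40.8, 22.6 and 29.6 CPM in DN3 WT and at 5.69, 4.39 and 3.93 CPM in DN3 KO. The highest KO library lay far below the lowest WT library. On the mean this was 31 ± 9.17 against 4.67 ± 0.913 CPM (SD, n = 3 each), 6.64-fold lower, and the fitted log2 fold change came to -2.72 (SE 0.297), or -2.62 without the libraries that stood apart. With 1 DN3 library left out at a time, the log2 fold change ranged from -2.91 to -2.48. The estimated counts behind the KO values were 132, 81 and 49. In this comparison 64 of the 13749 genes had a lower fitted log2 fold change. Since the H2-Q6 values chose the list, that rank is a description.

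H2-Q7, the neighbouring Qa-2 gene, was at 136, 104 and 123 CPM in DN3 WT and at 39.8, 35.1 and 49.8 CPM in DN3 KO. No KO library came near the lowest WT library. KO was 2.91-fold lower on the means (fitted log2 fold change -1.54, SE 0.391). Within a library, H2-Q6 took 23%, 17.9% and 19.5% of the counts of H2-Q6 and H2-Q7 together in DN3 WT, against 12.5%, 11.1% and 7.31% in DN3 KO. The share of H2-Q6 was thus lower in each KO library as well. Summed over the near-identical genes H2-Q4, H2-Q5, H2-Q6, H2-Q7 and H2-Q10, where a read shared out wrongly among the 5 still counts once, DN3 WT libraries had 191, 135 and 162 CPM and DN3 KO libraries 53.4, 45.6 and 58.6 CPM. For that sum the fit gave -1.63 (SE 0.348) on the log2 scale.

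The classical genes, whose products present peptides to CD8 T cells, were lower by a smaller factor. H2-K1 was at 554, 508 and 492 CPM in DN3 WT and at 373, 320 and 274 CPM in DN3 KO, which the fit put at -0.69 (SE 0.225) on the log2 scale. H2-D1 was at 1020, 936 and 1014 CPM in WT and at 654, 612 and 644 CPM in KO, at -0.64 (SE 0.228) on that scale. For both genes the KO libraries lay well under the WT libraries, 1.61-fold lower on the means for H2-K1 and 1.56-fold for H2-D1. H2-Q4, a Q-region gene of low level, was at 9.59, 7.73 and 7.27 CPM in WT and at 6.92, 5.47 and 3.73 CPM in KO. Its groups did not overlap but lay close together, and its log2 fold change of -0.6 (SE 0.337) became -0.4 without the libraries that stood apart.

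B2m, the light chain of all these molecules, was at 1348, 1379 and 1245 CPM in DN3 WT and at 1043, 988 and 1134 CPM in DN3 KO. Tap1, the subunit that forms the peptide transporter together with Tap2, was at 212, 213 and 194 CPM in WT and at 153, 147 and 148 CPM in KO. Both genes were lower in each KO library, with log2 fold changes of -0.33 (SE 0.215) for B2m and -0.46 (SE 0.202) for Tap1; whether these differ from the values of the heavy chains was not tested. The sum of heavy chain TPM per B2m TPM, which does not depend on how a library was scaled, was 0.67, 0.604 and 0.686 in DN3 WT, against 0.573, 0.546 and 0.529 in DN3 KO.

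For the T-region genes and the activator, the DN3 genotypes overlapped. H2-T23, which encodes Qa-1, the ligand of an inhibitory receptor on NK cells, was at 106, 104 and 91.9 CPM in DN3 WT and at 102, 80.4 and 145 CPM in DN3 KO. H2-T22, whose product certain γδ T cell receptors bind, was at 63.5, 62.3 and 61.2 CPM in WT and at 53.4, 50.7 and 104 CPM in KO. In both genes the one high KO value was that of replicate 3, the library that stood apart. The fitted log2 fold changes of 0.12 (SE 0.381) for H2-T23 and 0.15 (SE 0.443) for H2-T22 turned negative without that library and DN2 KO replicate 2, at -0.14 and -0.26. H2-T22 then lay below WT in each remaining KO library, so that 8 of the 10 genes separated downward, against 10.9% of all genes with so few libraries. Nlrc5, the activator of class I genes, was at 20.7, 15.1 and 16.1 CPM in WT and at 17.3, 15.6 and 5.08 CPM in KO. The groups overlapped, and the log2 fold change of -0.45 (SE 0.757) became -0.07 without the libraries that stood apart.

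**Figure D1:**
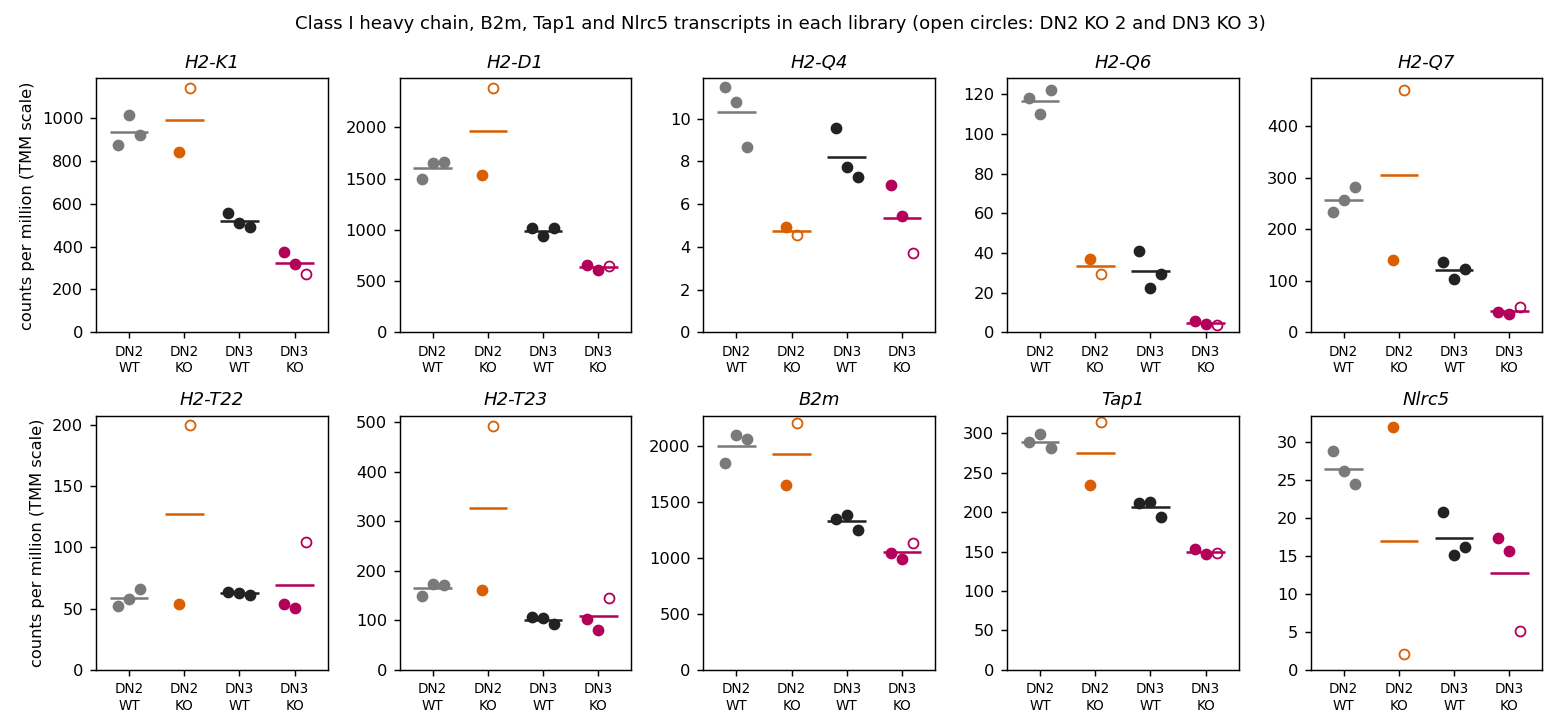
Each panel plots 1 of the 10 genes, with CPM on the TMM scale on the y axis (from 0) and the 4 groups on the x axis. Points are libraries, horizontal bars are group means, and open circles mark DN2 KO replicate 2 and DN3 KO replicate 3. The 3 DN3 KO points lie below the 3 DN3 WT points for H2-K1, H2-D1, H2-Q4, H2-Q6, H2-Q7, B2m and Tap1 and not for H2-T22, H2-T23 and Nlrc5.

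The DN2 libraries were not used to choose the list, and they ask whether the genotypes already differ 1 stage earlier. None of the 10 genes passed the test there, and neither did any of the 13749 genes (0.0% called lower). The lowest adjusted p was 0.184, while 2019 genes had an unadjusted p under 0.05 and DESeq2 called 38. H2-Q6 was at 118, 110 and 122 CPM in DN2 WT and at 37.1 and 29.5 CPM in DN2 KO. Both KO libraries lay far below the WT libraries, 3.5-fold lower on the means. On the log2 scale this came to -1.81 (SE 0.33, edgeR adjusted p = 0.336). The sum over the near-identical H2-Q genes did not separate the DN2 genotypes. It was at 371, 386 and 422 CPM in WT, and in KO at 186 CPM and, in the library that stood apart, 514 CPM. For that sum the fit gave -0.17 (SE 0.38) on the log2 scale. Under the 17 alternative analyses the adjusted p of H2-Q6 ranged from 2.67e-05 to 1.0 and the log2 fold change from -2.51 to -1.63. It passed the threshold in 2 of them, DESeq2 (adjusted p = 2.67e-05) and the fit without DN2 KO replicate 1 (adjusted p = 0.00404), which rests on the library that stood apart. With DN2 KO replicate 2 left out instead, it was at -1.63 with an adjusted p of 1.0.

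H2-Q4 was the other gene of the list with both DN2 KO libraries below all DN2 WT libraries, at 11.5, 10.8 and 8.69 CPM in WT and at 4.94 and 4.54 CPM in KO. The fit put it at -1.12 (SE 0.388, adjusted p = 0.336) on the log2 scale. Those 2 genes of 10 compare with 8.28% of all genes that separated downward in DN2. In TPM the count was 6 of 10, with H2-K1, H2-Q7, B2m and Tap1 besides, against 10.9% of all genes. H2-Q7 showed how far the DN2 KO libraries disagreed, with 233, 257 and 282 CPM in WT against 140 and 471 CPM in KO. Its log2 fold change of 0.25 (SE 0.424, adjusted p = 0.748) turned to -0.86 (adjusted p = 0.872) without the libraries that stood apart. H2-Q6 took 33.6%, 30.0% and 30.2% of the counts of H2-Q6 plus H2-Q7 in DN2 WT, against 21% and 5.89% in DN2 KO.

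For the classical genes the DN2 genotypes overlapped. H2-K1 was at 871, 1011 and 922 CPM in WT and at 842 and 1140 CPM in KO, at 0.08 (SE 0.25, adjusted p = 0.854) on the log2 scale. H2-D1 was at 1493, 1648 and 1659 CPM in WT and at 1530 and 2387 CPM in KO, at 0.29 (SE 0.253, adjusted p = 0.567). In both genes the KO library above the WT range was replicate 2, and in TPM that library lay below WT for both. TPM scale each library to the same total after division by length and do not use the TMM factors. Between libraries, the values of a gene in CPM and TPM thus differ mainly by the scale of the whole library. Which scale is nearer the true levels was not tested. B2m and Tap1 had log2 fold changes of -0.05 (SE 0.24) and -0.08 (SE 0.226), with adjusted p of 0.906 and 0.85. In H2-T22 and H2-T23, DN2 KO replicate 1 lay within the WT range at 54.1 and 160 CPM, and replicate 2 lay at 200 and 492 CPM, far above it. Their log2 fold changes of 1.11 (SE 0.488) and 0.99 (SE 0.42), each with an adjusted p of 0.338, became -0.1 and -0.02 without that library. Nlrc5, at 28.7, 26.1 and 24.4 CPM in WT, was at 31.9 CPM in DN2 KO replicate 1 and at 2.03 CPM in replicate 2. Its transcripts are the longest of the 10 genes, at a mean effective length of 4703 bases. Without the libraries that stood apart, 6 of the 10 genes had the remaining DN2 KO library below every WT library, against 17.8% of all genes, and Nlrc5 had it above.

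**Figure D2:**
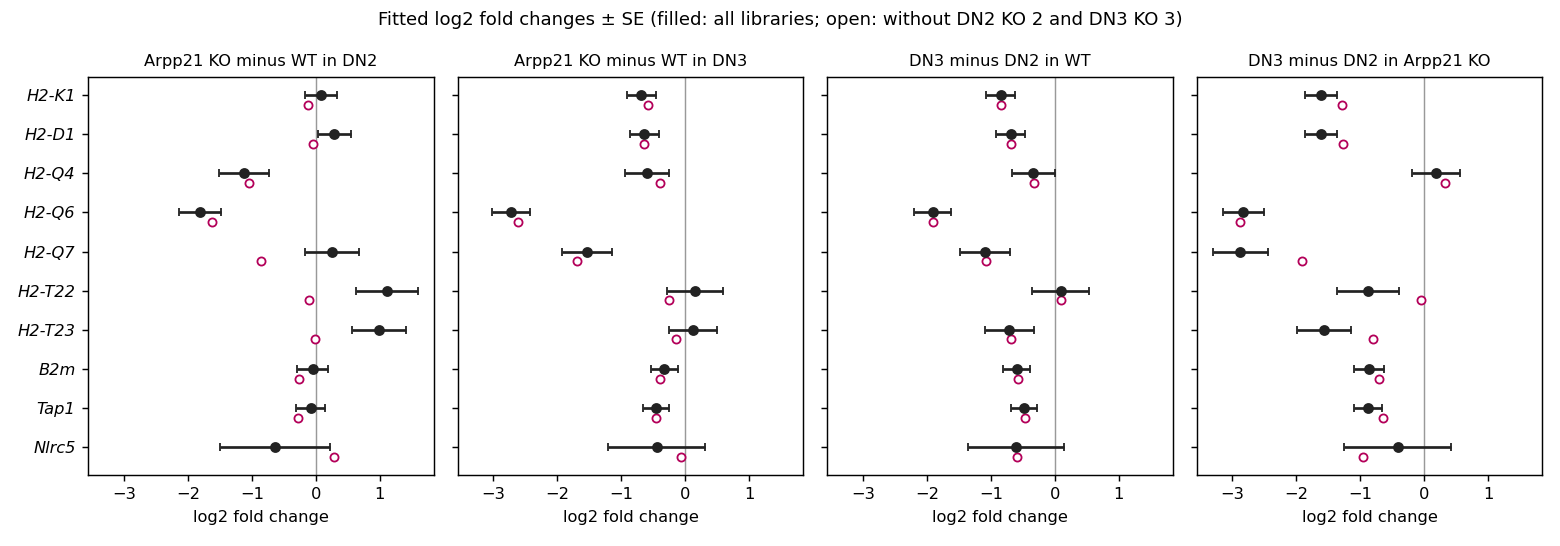
Fitted log2 fold changes (x axis) of the 10 genes (y axis) in the 4 comparisons, 1 panel each. Filled points with bars are the value and its SE over all libraries, and open points are the value without DN2 KO replicate 2 and DN3 KO replicate 3. In DN2 the open points of H2-K1, H2-D1, H2-Q7, H2-T22, H2-T23 and Nlrc5 lie on the other side of 0 from the filled ones, while H2-Q6 is at -1.81 and -1.63.

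The stage comparison asks how class I expression changes from DN2 to DN3. In WT, 8 of the 10 genes were lower in every DN3 library than in every DN2 library, against 17.3% of all genes, and no gene of the list separated upward. Of the 7 genes tested here, none passed the adjusted threshold with the spread shared over all 11 libraries, where 2.25% of all genes were called lower. H2-K1 came closest, 1.8-fold lower in DN3 on the means (log2 fold change -0.85, SE 0.226, adjusted p = 0.0695). B2m was at -0.6 (SE 0.216, adjusted p = 0.215), Tap1 at -0.49 (SE 0.202, adjusted p = 0.3) and H2-T23 at -0.71 (SE 0.382, adjusted p = 0.509). Nlrc5 followed at -0.61 (SE 0.756, adjusted p = 0.944) and H2-Q4 at -0.34 (SE 0.335, adjusted p = 0.877). H2-T22 did not separate, at 52.0, 57.9 and 66 CPM in DN2 WT and at 63.5, 62.3 and 61.2 CPM in DN3 WT. The DN3 WT libraries also entered the choice of the list, so the stage tests in WT are not fully independent of it.

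The spread in that fit is estimated over all 4 groups, the libraries that stood apart included. Without the libraries that stood apart, 5 of the 7 genes fell, against 8.38% of all genes called lower. H2-K1 was at -0.84 (SE 0.0995, adjusted p = 0.000645), B2m at -0.58 (SE 0.0878, adjusted p = 0.00242), Tap1 at -0.47 (SE 0.0857, adjusted p = 0.0062), H2-T23 at -0.69 (SE 0.126, adjusted p = 0.00637) and Nlrc5 at -0.59 (SE 0.173, adjusted p = 0.0496). The labels do not pair the WT libraries across stages. Deviations of same-numbered WT libraries correlated at 0.134 to 0.441, and a block on that number was chosen after seeing the data. With this block in the WT libraries alone, the same 5 genes fell, against 13.2% of all genes called lower (edgeR adjusted p from 0.000206 for H2-K1 to 0.0405 for Nlrc5). That fit is thus no independent support. H2-Q4 and H2-T22 did not pass in either fit, with adjusted p of 0.431 and 0.653 without the libraries that stood apart.

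Among the heavy chains given as a description, H2-Q6 went from 117 ± 5.84 CPM in DN2 WT to 31 ± 9.17 CPM in DN3 WT (log2 fold change -1.91, SE 0.285). H2-Q7 went from 257 ± 24.1 to 121 ± 16.5 CPM (log2 fold change -1.09, SE 0.386) and H2-D1 from 1600 ± 92.9 to 990 ± 47.1 CPM (log2 fold change -0.69, SE 0.229, n = 3 in each group). Summed over the near-identical H2-Q genes, the fit gave -1.27 (SE 0.344) on the log2 scale, also a description. The level of H2-Q6 in DN2 KO, 33.3 ± 5.39 CPM (n = 2), was close to its level in DN3 WT. The sum of heavy chain TPM per B2m TPM was 0.778, 0.734 and 0.738 in DN2 WT, above each DN3 WT library. In DN2 KO it was 0.77, within the DN2 WT range, and 0.997, above it, the latter in the library that stood apart. The lower KO ratio of DN3 was thus not seen in DN2.

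In the KO libraries, 7 of the 10 genes were lower in every DN3 than in every DN2 library, against 11.7% of all genes. These include H2-Q6, H2-Q7 and H2-D1, whose low DN3 KO values were known, so the count is a description. In TPM it was 4 of 10 against 7.83% of all genes, with H2-K1, B2m and Tap1 overlapping as well, and in CPM without the libraries that stood apart 9 of 10 against 38.2%. H2-K1 fell 3.08-fold on the means (log2 fold change -1.62, SE 0.248, adjusted p = 0.00519) and was the only one of the 7 tested genes to pass, where 2.95% of all genes were called lower. Its values were 842 and 1140 CPM in DN2 KO and 373, 320 and 274 CPM in DN3 KO. The DN3 KO libraries also entered the choice of the list, so this call is not independent of that choice. In TPM the DN2 KO libraries read 896 and 404 TPM, the second of which lies within the DN3 KO range of 178 to 430 TPM, and with limma on log2(TPM + 1) the call was lost (-1.0, adjusted p = 0.238). The call held in 14 of 19 alternatives, whose adjusted p ranged from 3.76e-10 to 0.721. Tap1 (log2 fold change -0.88, SE 0.223), B2m (-0.87, SE 0.237) and H2-T23 (-1.57, SE 0.42) missed the threshold with adjusted p of 0.0562, 0.0732 and 0.0679. Without the libraries that stood apart, H2-K1, Tap1, B2m and H2-T23 fell, 4 of the 7 genes against 4.02% of all genes, with log2 fold changes of -1.29, -0.65, -0.71 and -0.81 and adjusted p of 0.000921, 0.0157, 0.0115 and 0.0322. These calls compare the DN3 KO libraries with DN2 KO replicate 1 alone and take the spread from the other groups. H2-Q4 had a log2 fold change of 0.18 (SE 0.377) and did not separate. The stage comparisons share their libraries with the genotype comparisons, so the 4 sets of values are given side by side and were not correlated. An edgeR test of whether the stage change differs between the genotypes called 0 of 13749 genes. A call in KO and none in WT, as for H2-K1, is therefore not a difference shown between the genotypes. The largest stage differences in KO were those of H2-Q7 (log2 fold change -2.88, SE 0.432, or -1.91 without the libraries that stood apart) and H2-Q6 (-2.83, SE 0.315, or -2.88), both given as a description. For the sum over the near-identical H2-Q genes the fit gave -2.74 (SE 0.382), likewise a description.

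**Figure D3:**
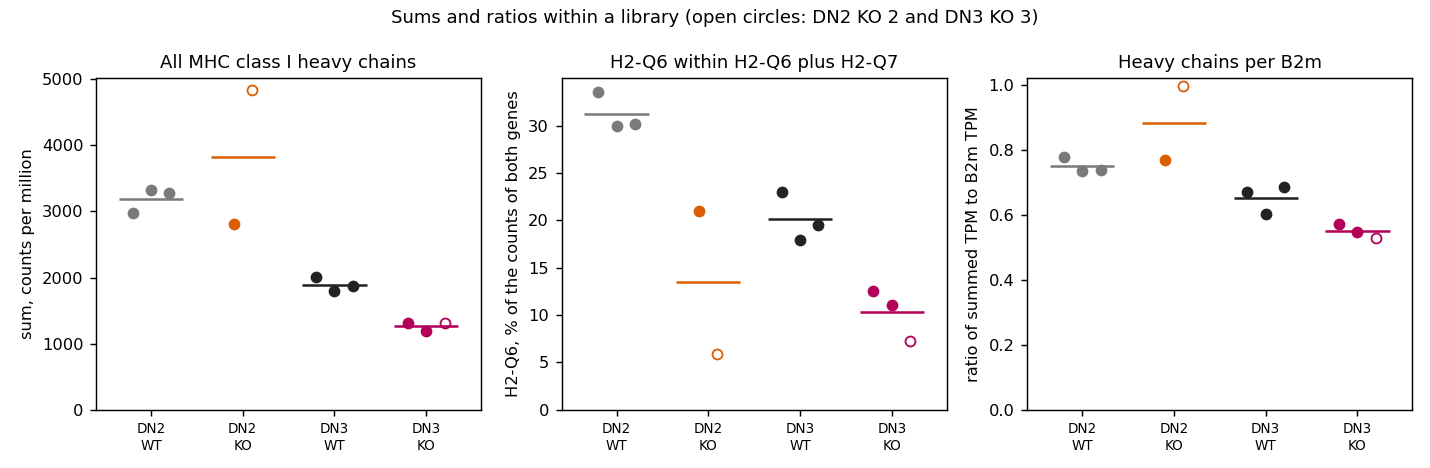
Sums and ratios in each library, with the 4 groups on the x axis. The left panel gives the summed CPM of 34 class I heavy chain genes, the middle panel the percentage of H2-Q6 in the counts of H2-Q6 plus H2-Q7, and the right panel the ratio of summed heavy chain TPM to B2m TPM. Points are libraries, bars group means, and open circles DN2 KO replicate 2 and DN3 KO replicate 3. DN3 KO lies below DN3 WT in all 3 panels, at 1186 to 1317 against 1800 to 2001 CPM in the left one. In DN2, every KO library lies below every WT library in the middle panel only.

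At the level of single transcripts, all counts of H2-Q6 fell on its transcript of 2085 bases, and the annotated one of 981 bases was at 0 in every library. H2-Q7 was spread mainly over a coding transcript of 1134 bases, with 57.5% to 59.0% of its counts in DN3 WT against 44.8% to 54.1% in DN3 KO, a coding transcript of 1497 bases and one of 4209 bases with a retained intron. In DN3, the 1134-base transcript was at 61.1 to 80.2 CPM in WT and 17.9 to 26.9 CPM in KO, the 1497-base one at 21.5 to 30.3 CPM in WT and 7.21 to 18.0 CPM in KO, and the 4209-base one at 16.3 to 23.3 CPM in WT and 3.65 to 9.83 CPM in KO. Each of these H2-Q7 transcripts was lower in every DN3 KO library than in every DN3 WT library. The H2-D1 counts were shared between transcripts of 2102 and 1744 bases, and the latter took 27.8% to 30.8% in DN3 WT and 23.1% to 23.7% in DN3 KO. Its record differs in version between the tables and the annotation used here. How kallisto splits reads between transcripts of such likeness is uncertain, so these shares are given without a test.

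The genes around the 10 were taken from lists of the pathway. Among the other Qa and T-region heavy chains, H2-Q2 was higher in DN3 than in DN2. It was at 0.392, 1.36 and 0.0767 CPM in DN2 WT and at 25.4, 20.0 and 11.2 CPM in DN3 WT (fitted log2 fold change 4.95, SE 1.18, adjusted p = 0.046), where 1.87% of all genes were called higher. In KO it was at 0.0 and 1.39 CPM in DN2 and at 30.1, 33.3 and 44.4 CPM in DN3, with an adjusted p of 0.0584. DN3 libraries of both genotypes thus lay far above the DN2 libraries, and within DN3 the KO libraries were above the WT libraries (log2 fold change 0.93, SE 0.986, adjusted p = 1.0). The WT stage call held in 11 of 20 alternatives (adjusted p from 0.000105 to 0.165). Of its 31-base words, 67.8% occur in no other gene. H2-Q2 was the 1 gene of the 9 tested in this list that was called in WT, and in KO 0 of 9 were called. Seen over the list as a whole, the median log2 fold change was 0.09 in the WT stage comparison, against 0.01 over all genes, and 0.12 for KO against WT in DN3, against -0.01.

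The other genes of peptide loading gave no call between genotypes. Of 9 genes in the list (B2m, Tap1, Tap2, Tapbp, Tapbpl, Calr, Canx, Pdia3 and Erap1), 0 passed in any of the 4 comparisons, leaving out B2m and Tap1 from the DN3 genotype comparison. Tap2, the partner of Tap1, was at 388, 361 and 319 CPM in DN3 WT and at 356, 287 and 199 CPM in DN3 KO, so its groups overlapped (log2 fold change -0.34, SE 0.266, adjusted p = 1.0). Tapbp, which encodes tapasin, the bridge between TAP and the heavy chain, was at 394, 363 and 360 CPM in WT and at 345, 303 and 217 CPM in KO (log2 fold change -0.37, SE 0.31, adjusted p = 1.0). Calr, a chaperone of the loading complex, fell from DN2 to DN3 without the libraries that stood apart (log2 fold change -0.68, adjusted p = 0.00184, in WT and -0.89, adjusted p = 0.0066, in KO), while Tapbpl, a relative of tapasin, rose (0.58, adjusted p = 0.0487, and 1.1, adjusted p = 0.0419). The KO values again rest on 1 DN2 KO library. With all libraries neither was called.

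The immunoproteasome subunits Psmb8, Psmb9 and Psmb10, which cut proteins into peptides suited to class I, and the proteasome activator genes Psme1 and Psme2 gave 0 calls of 5 in each comparison. Psmb8 was at 907, 940 and 861 CPM in DN3 WT and at 763, 754 and 1522 CPM in DN3 KO, and at 871 and 3840 CPM in DN2 KO against 859 to 1045 CPM in DN2 WT. Psme2 was at 280, 300 and 284 CPM in DN3 WT and at 250, 270 and 600 CPM in DN3 KO, and at 289 and 1505 CPM in DN2 KO. The high values were again those of the libraries that stood apart. Without them the median log2 fold change of the 5 genes was -0.18 in DN3 and -0.08 in DN2, in place of 0.17 and 1.33.

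Among 13 genes for transcription of class I genes (Nlrc5 and, among others, genes of RFX, NF-Y, CREB, interferon regulatory factors and NF-kappa B), 0 passed with all libraries. Nfkb1 was the gene of this list that came closest, lower in DN3 WT than in DN2 WT at -1.14 (SE 0.301, adjusted p = 0.068) on the log2 scale. It fell without the libraries that stood apart, at -1.12 (adjusted p = 0.000111) in WT and, with 1 DN2 KO library, at -0.9 (adjusted p = 0.0054) in KO. Irf1, an activator of interferon-responsive genes, was at 113 ± 5.37 CPM in DN3 WT and 80.1 ± 19.1 CPM in DN3 KO (n = 3 each) and lower in each KO library (log2 fold change -0.5, SE 0.265, adjusted p = 1.0). Of 8 interferon response genes 0 passed, while 6 of the 8 were lower in every DN3 KO library than in every DN3 WT library, against the 5.56% of all genes given above. The list was chosen with earlier results of these data known, so this count is a description. In DN2, 2 of the 8 separated downward, against 8.28% of all genes. Irf7, the regulator that amplifies the type I interferon response, was at 18.4, 22.6 and 15.4 CPM in DN3 WT and at 9.28, 6.37 and 7.42 CPM in DN3 KO (log2 fold change -1.29, SE 0.319, adjusted p = 1.0). In DN2 it was at 21, 27.6 and 20.3 CPM in WT and at 12.7 and 7.72 CPM in KO (log2 fold change -1.17, SE 0.363, adjusted p = 0.336), so both stages separated the genotypes for Irf7. Usp18, a brake on that response, was at 30.7, 40.1 and 28.1 CPM in WT and at 18.8, 15.9 and 19.7 CPM in KO (log2 fold change -0.86, SE 0.335, adjusted p = 1.0). The part of these genes in the class I values was not tested. Class II genes, measured for contrast, gave 0 calls of 7 in each comparison, class I-like genes outside the MHC such as Cd1d1 and Mr1 0 of 5, and of 6 M-region heavy chains only 1 was high enough to be tested and was not called. Without the libraries that stood apart, Mr1 and Bst2 were among the genes called higher and Psmb9 and H2-DMb1 lower in DN3 than in DN2 of WT, and Mr1 also higher in KO, against 1 DN2 library, while no tested gene of any list was called between genotypes.

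**Figure D4:**
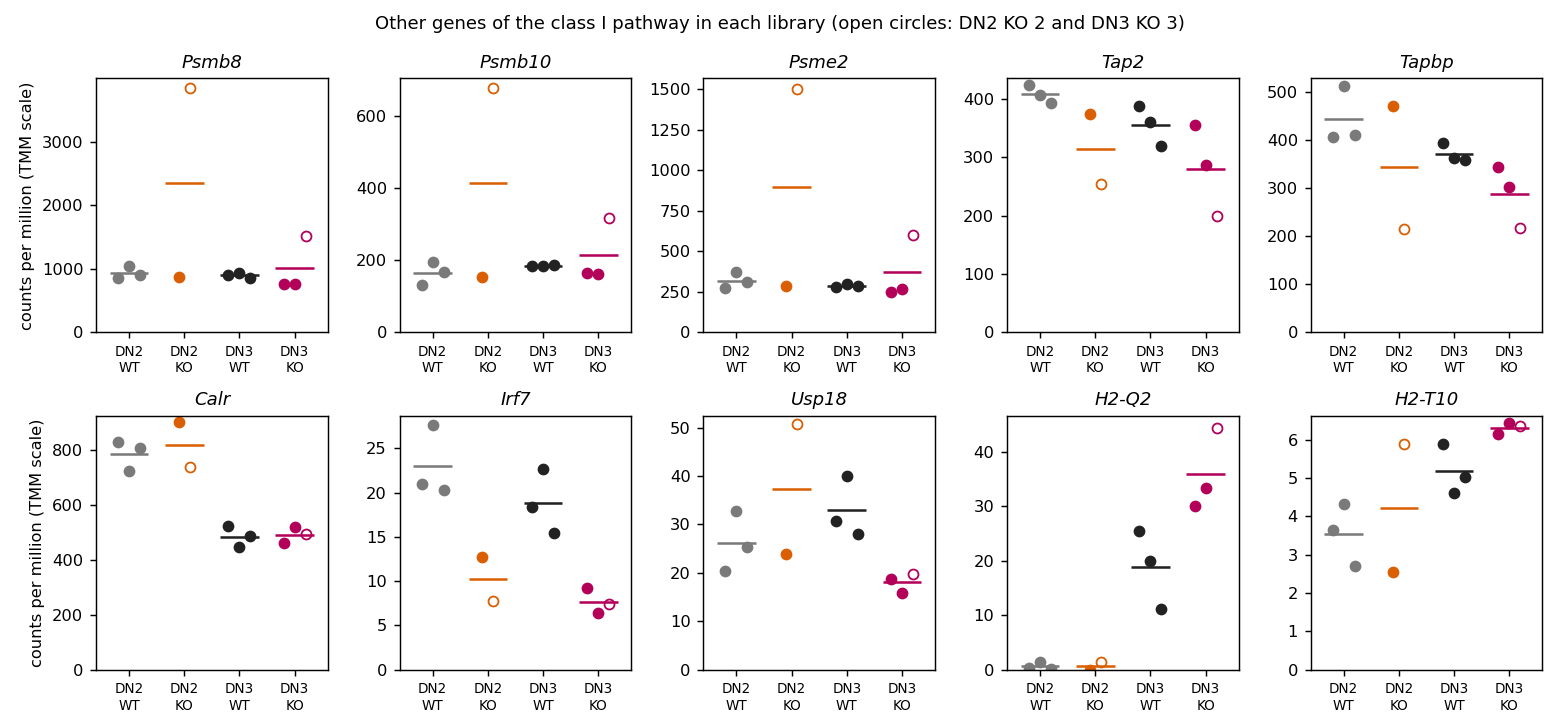
CPM on the TMM scale (y axis, from 0) of 10 further genes of the pathway in the 4 groups (x axis), drawn as in the plot of the 10 listed genes. Psmb8, Psmb10 and Psme2 are high in the 2 libraries shown as open circles, Irf7 and Usp18 are lower in the 3 DN3 KO than in the 3 DN3 WT libraries, and H2-Q2 is at 1.39 CPM or less in DN2 and at 11.2 CPM or more in DN3.

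Over the 4 comparisons the median log2 fold change of the 10 genes was 0.02 for KO against WT in DN2 (-0.06 over all genes), -0.53 in DN3 (-0.01 over all genes), -0.65 for DN3 against DN2 in WT (0.01 over all genes) and -1.23 in KO (0.03 over all genes). These medians, without the libraries that stood apart, were -0.19, -0.43, -0.64 and -0.89. The DN3 genotype median includes H2-Q6 and H2-Q7, whose lower DN3 KO values chose the list, so it is a description and is read no further. The stage medians are a description too, as they include H2-Q6, H2-Q7 and H2-D1.

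The genes whose log2(CPM + 1) ran most like that of H2-Q6 over the 11 libraries were Ptbp3 (Pearson r = 0.971), Gng2 (0.941), Cttn (0.94), Nsl1 (0.937) and Icam1 (0.934). For H2-K1 they were Fxyd5 (0.986), H2-D1 (0.979), Tap1 (0.978), Ctsw (0.973) and Tcrg-C3 (0.973). Gng2, for example, had mean levels of 62.9, 34.6, 11.3 and 3.53 CPM in DN2 WT, DN2 KO, DN3 WT and DN3 KO, and Fxyd5 of 197, 225, 114 and 81.3 CPM. These correlations describe libraries that fall into 4 groups and share the differences between them, and no test was made of them.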

How the data were processed

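RNA of sorted DN2 and DN3 thymocytes was sequenced in 11 libraries, 3 per group and 2 for DN2 KO, from SmartSeq V4 libraries with Nextera and paired reads of 150 bases. The authors pseudoaligned trimmed reads to the Ensembl 101 transcripts of GRCm38 with kallisto 0.46 (tool and build also in the submitters' processing notes) and deposited, per transcript, estimated counts (expected counts, not normalized), TPM, and lengths, which are another unit given in bases by the authors. The deposited TPM correct for effective length and sum to the same total in each library.

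Here, 116640 of 119414 transcripts were matched to genes with GENCODE M21 (98.9% or more of the counts in every library), and the transcripts' estimated counts were added up for each gene, then rounded. Genes were kept by filterByExpr (minimum count 10, minimum total 15) and tested with edgeR 4.0.16 (glmQLFit, TMM, 4 groups, two-sided, Benjamini-Hochberg over 13749 genes, calls at an adjusted p under 0.05) in R 4.3.3. SEs are the absolute log2 fold change over the square root of F and are approximate. DESeq2 1.42.0 and limma 3.58.1 served as alternatives, and limma took genes at 1 TPM or more in 2 libraries. Depth was 14531762 to 63109504 estimated counts, and a floor of 3 counts is 0.0802 to 0.242 CPM, for counting error only. The scripts were tested on simulated counts with 200 changed genes.

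The 10 genes and all lists were chosen with earlier results of these data known. Named from each list were called genes and up to 3 others with the largest change per comparison, and the 5 genes most like H2-Q6 and H2-K1. The values of 1 gene of the lists are not reported here. Words of 31 bases were counted in the M21 transcripts, and the near-identical H2-Q genes (at least 10% of words shared with H2-Q6 or H2-Q7) were chosen after seeing the sequences. The alternatives were another tool, scaling, filter, length offset, TPM with pseudocounts of 1 and 0.1, the 2 groups alone, sample weights, the replicate number as a block, libraries left out, summed copies and protein-coding transcripts. The replicate block within 1 genotype was chosen after seeing the data. Deviations from the group means correlated at 0.134 to 0.441 between same-numbered DN2 WT and DN3 WT libraries, all 3 pairs, so these numbers were taken to pair the libraries. Between KO and WT, and between the KO stages, they were not, although same-numbered DN2 WT and DN2 KO libraries correlated at 0.19 and 0.191. The labels state no pairing. Tables were made with Python 3.11.15 and pandas 2.3.3.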

Additional observations from a re-analysis of the deposited data

How the results depend on the processing

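Of 760 log2 fold changes of the 10 genes under alternatives, 652 kept their direction and their side of the threshold (or, where no test was made, moved by less than the spread between libraries), 40 newly passed the threshold, 5 no longer passed, 21 moved by more and 42 turned in sign. Except where an alternative drops samples or sums genes, the cause was not tested.

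DESeq2 called 38 genes in DN2 and 16 in DN3 for KO against WT, and 1191 in WT and 1600 in KO for the stages, with 1, 2 and 4 of the listed genes called in DN2, the WT stages and the KO stages. Sample quality weights called 118 genes in DN3, 2324 in the WT stages (4 of the listed genes) and 140 in the KO stages (0 listed). Fits to the 2 groups alone called 0 in DN3, 2000 in the WT stages (4 listed) and 0 in the KO stages (0 listed). Without the 2 libraries that stood apart, which leaves 1 DN2 KO library, the counts were 5 in DN3, 2230 in the WT stages (5 listed) and 897 in the KO stages (4 listed). The length offset called 1 listed gene in the WT stages. TPM with a pseudocount of 0.1 called 2 genes in DN3, and the fits with near-identical H2-Q genes summed or all class I heavy chains summed called 0 there, as H2-Q6 is then no feature of its own. The replicate number as a block over all libraries called 0 genes in DN2, 0 in DN3, 444 in the WT stages and 414 in the KO stages. That block within 1 genotype called 2880 genes in the WT stages (5 listed) and 250 in the KO stages (0 listed) and was chosen after seeing the data. The block over all libraries changed no call of a listed gene that was tested. Same-numbered WT and KO libraries deviated together at 0.19 to 0.191 in DN2 and -0.177 to 0.344 in DN3.

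Leaving out 1 library at a time gave 0 to 6773 calls in DN2 (0 to 6 listed genes), 0 to 0 in DN3, 243 to 389 in the WT stages (0 to 0 listed) and 281 to 6754 in the KO stages (1 to 6 listed). The call in DN3 was lost without any 1 of its 6 libraries. In the WT stages the count was 280 or less without any of the DN3 WT libraries and 322 and 333 without DN2 WT replicates 3 and 2. In the KO stages it was 281 and 283 without DN3 KO replicates 1 and 2. The counts of 6773 and 6754 come from the fit without DN2 KO replicate 1, in which the lone DN2 KO library is assumed to vary like the other groups.

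Signs turned mostly in DN2. There, with TPM, H2-K1 was at -0.72, H2-D1 at -0.46 and H2-Q7 at -0.64 with either pseudocount. H2-K1 was at -0.06 with the length offset, and B2m at 0.01 with DESeq2 or its size factors. Without the libraries that stood apart, H2-K1 was at -0.13, H2-D1 at -0.05, H2-Q7 at -0.86, H2-T22 at -0.1, H2-T23 at -0.02 and Nlrc5 at 0.29. With 1 library left out, the DN2 ranges were -0.25 to 0.13 for B2m, -0.04 to 0.57 for H2-D1, -0.13 to 0.28 for H2-K1, -0.86 to 0.86 for H2-Q7, -0.1 to 1.76 for H2-T22, -0.02 to 1.57 for H2-T23, -3.71 to 0.29 for Nlrc5 and -0.28 to 0.11 for Tap1. In DN3, H2-T22 was at -0.16 and H2-T23 at -0.15 with TPM, at -0.24 and -0.19 with sample weights, and at -0.26 and -0.14 without the libraries that stood apart, with ranges of -0.26 to 0.33 and -0.14 to 0.3 when 1 library was left out. In the KO stages, Nlrc5 was at 0.23 with TPM and a pseudocount of 0.1, at 1.34 with sample weights, at 0.15 with the replicate block and at 0.97 with the block within the genotype, and H2-Q4 was at -0.01 with protein-coding transcripts. Their ranges with 1 library left out were -1.36 to 2.65 and -0.04 to 0.38, and that of H2-T22 was -1.53 to 0.33.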
